A study of Homo sapiens with 9 samples.

Results

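The genes that gate entry into the cell cycle in G1 were followed here, namely the D-type cyclins CCND1, CCND2 and CCND3, their kinases CDK4 and CDK6, the pocket protein RB1, and the inhibitors CDKN1B, CDKN1C, CDKN2A and CDKN2C. They were taken by gene symbol from the platform annotation of a human oligonucleotide array. Of these 10 genes 9 were represented, by 19 of the 22215 probe sets tested, against 11963 genes with a probe set of their own symbol on the whole array. The annotation used here pairs no probe set with CDKN2C, so that gene was not analysed here. No filter on dim probe sets was applied.

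Total RNA came from IMR-32, a human neuroblastoma cell line that carries extra copies of the MYCN oncogene. The 69CHAT group was a line with stable expression of 69-kDa choline acetyltransferase (ChAT), the enzyme that makes acetylcholine, and the 82CHAT group a line with stable expression of the 82-kDa form. The WT group was labelled as wild-type IMR-32, with no ChAT form added. Each group had 3 arrays, which the design text calls biological replicates, and the study asked how each form changes gene expression. One line stood for each form, so the form and the line cannot be told apart, and the labels give no promoter, vector, clone or time in culture.

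D-type cyclins are made in response to growth signals and switch on CDK4 and CDK6. The active kinases phosphorylate RB1, which otherwise holds back the E2F transcription factors that drive DNA replication genes. The INK4 proteins, among them the p16 product of CDKN2A, bind CDK4 and CDK6 directly, while p27 (CDKN1B) and p57 (CDKN1C) belong to the CIP/KIP family, which acts mainly on cyclin-CDK2 complexes. A second product of CDKN2A, ARF, is read from another start and another reading frame and protects p53. In neuroblastoma, cyclin D1 is commonly abundant and CDK4 is a known target of MYC-family factors.

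The arrays labelled WT stood apart from both lines. Across the table, log2 intensities of WT arrays correlated at 0.92 to 0.931 with 69CHAT and at 0.913 to 0.933 with 82CHAT, while 82CHAT and 69CHAT arrays correlated at 0.976 to 0.994 with each other. One MYCN probe set read 1035 to 1141 on 69CHAT arrays and 1142 to 1276 on 82CHAT arrays, against 38.0 to 39.6 on WT arrays. In each line 8 of the 12 measured sympathoadrenal marker genes were higher than on WT arrays and 1 was lower, and the summed brightest probe sets of that list read 10882 to 17853 in 69CHAT and 13640 to 20338 in 82CHAT, against 1812 to 2041 in WT. All 7 epithelial marker genes were lower in both lines, with sums of 310 to 348 in 69CHAT and 315 to 355 in 82CHAT against 6222 to 7079 in WT. Mesenchymal markers summed to 4870 to 7880 in 69CHAT and 4839 to 6914 in 82CHAT against 11193 to 11929 in WT, with 1 of 7 genes higher and 2 lower in 69CHAT, and 1 higher and 3 lower in 82CHAT. VIM alone read 3596 to 6786 in 69CHAT and 3635 to 5786 in 82CHAT, against 7707 to 8870 in WT. THY1 was the higher gene, and COL1A1, COL1A2 and COL3A1 passed in neither line. No glial marker passed, with 3 of 5 measured. The WT label is therefore in doubt, and whatever sets those arrays apart cannot be told apart from an effect of ChAT in any value below that is set against them. CHAT itself read 256, 175 and 177 in 69CHAT and 1066, 423 and 1067 in 82CHAT, against 148, 125 and 114 in WT. By the limma test described below it was higher in 82CHAT (log2 difference 2.61, adjusted p = 0.00057). It did not pass in 69CHAT (0.64, adjusted p = 0.23). It is unknown here if this CHAT probe set reads a stretch that the transgenes contain.

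Promoter windows from RefSeq (GRCh38.p14, 250 bases before and 50 after an annotated start) were at hand for 7 of the 10 genes, as 13 windows. CCND1, CCND2 and CDKN1C had no entry. Both strands were searched for the letters TTTCCCGC, TTTGGCGC and TTTCGCGC (variants of the E2F site), CACGTG (the E-box bound by MYC-family factors) and GGGCGG (the SP1 box), which do not overlap in the windows shown. CDK4 is shown because its single window holds CACGTG 3 times, starting at bases 35, 55 and 150, and MYCN, whose values above part the groups, encodes a factor that binds these letters. Of all 35116 windows, 7.26% held at least 1 such E-box and 33 windows, 0.094%, held at least 3. Both CDKN2A windows are shown because that gene had the most strongly lowered member probe sets together with CCND2, and its 2 starts give different proteins. Capitals mark the E-boxes and SP1 boxes, and an SP1 box reads CCGCCC where it lies on the opposite strand.
CDK4, chr12:57752261-57752560, minus strand: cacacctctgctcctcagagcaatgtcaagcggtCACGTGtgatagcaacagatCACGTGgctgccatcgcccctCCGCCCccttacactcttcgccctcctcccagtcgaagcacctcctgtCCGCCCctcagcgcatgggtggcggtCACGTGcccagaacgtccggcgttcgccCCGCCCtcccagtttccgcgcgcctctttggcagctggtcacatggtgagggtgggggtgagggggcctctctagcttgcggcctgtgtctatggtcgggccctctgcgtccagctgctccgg
CDKN2A upstream start, chr9:21995275-21995574, minus strand: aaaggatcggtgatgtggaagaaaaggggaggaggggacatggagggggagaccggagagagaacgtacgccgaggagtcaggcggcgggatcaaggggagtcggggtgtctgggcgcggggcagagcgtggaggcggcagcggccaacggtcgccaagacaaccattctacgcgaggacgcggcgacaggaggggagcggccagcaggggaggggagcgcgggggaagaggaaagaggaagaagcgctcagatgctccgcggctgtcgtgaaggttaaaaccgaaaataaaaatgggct
CDKN2A downstream start, chr9:21974808-21975107, minus strand: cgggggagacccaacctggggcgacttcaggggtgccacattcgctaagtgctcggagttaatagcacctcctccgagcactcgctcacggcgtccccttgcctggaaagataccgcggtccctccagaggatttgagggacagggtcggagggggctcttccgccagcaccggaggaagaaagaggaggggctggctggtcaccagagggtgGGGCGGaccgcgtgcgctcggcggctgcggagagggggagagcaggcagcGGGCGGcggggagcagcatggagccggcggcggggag

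The CDK4 window carries its SP1 boxes at bases 76, 124 and 178, and SP1 letters were found in 45.0% of all windows. The upstream CDKN2A window, at the start of the ARF transcript, holds none of the searched letters, and the downstream window, at the start of the p16 transcript, holds SP1 boxes at bases 214 and 264. Both are rich in CpG, with 28 and 26 CpG pairs and 63.3% and 69.0% G or C, against medians of 14 CpG pairs and 58.7% over all windows. The E2F letters were in 0 of the 13 member windows and in 2.74% of all windows. The only RB1 window, chr13:48476200-48476499 on the plus strand, lies inside the gene, which starts at chr13:48303751. The promoter at that outer RB1 start was therefore not searched. CACGTG also occurs at base 281 of a CDK6 window and at bases 31 and 182 of separate CDKN2C windows. These matches describe letters in a window only. Binding of MYCN to any of these windows, or an effect of it on these genes, was not tested. The probe sets of CDKN2A could not be assigned to either start from the annotation used here.

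Set against WT, 11 of the 19 member probe sets passed the test in 69CHAT, 5 higher and 6 lower (57.9%), where 26.2% of all probe sets tested passed, 10.9% higher and 15.3% lower. By gene, 4 rose (CCND1, CDK4, CDK6 and CDKN1C) and 3 fell (CCND2, CCND3 and CDKN2A), where 13.4% of all genes were higher and 19.6% lower. A gene was counted where any of its probe sets passed, and CDKN1C rests on 213348_at only. In 82CHAT 12 of 19 passed, 6 higher and 6 lower (63.2%), against 26.8% of all probe sets, 11% higher and 15.7% lower. There CCND1, CDK4, CDK6, CDKN1B and RB1 rose and the same 3 genes fell, where 13.7% of all genes were higher and 20.4% lower. RB1 rests on 211540_s_at only, as its brighter probe set 203132_at gave a log2 difference of -0.0057 (adjusted p = 0.994). The calls of CDKN1B, CDKN1C and RB1 were lost in some alternatives, as given below. A probe set was called at a limma adjusted p (Benjamini-Hochberg over all 22215) under 0.05. The median absolute log2 difference of the member probe sets was 0.89 in 69CHAT and 0.95 in 82CHAT, beside 0.2 and 0.22 over all probe sets. The members were chosen with earlier results of these data known. Their shares and medians therefore describe the chosen genes and are no test of the pathway. In each comparison the 3 arrays of the line lay wholly above or wholly below the 3 WT arrays for 15 member probe sets, where that held for 43.7% of all probe sets in 69CHAT and 42.3% in 82CHAT. In bulk RNA, fewer cells of a kind and less RNA per cell cannot be told apart. Both comparisons use the same 3 WT arrays and so are not independent of each other. With the replicate number as a block in the fit, 69CHAT had 8 higher and 6 lower member probe sets, beside 16.6% higher and 19.9% lower over the whole table. Under the same block 82CHAT had 9 higher and 6 lower, beside 17.9% and 20.3%.

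**Figure D1:**
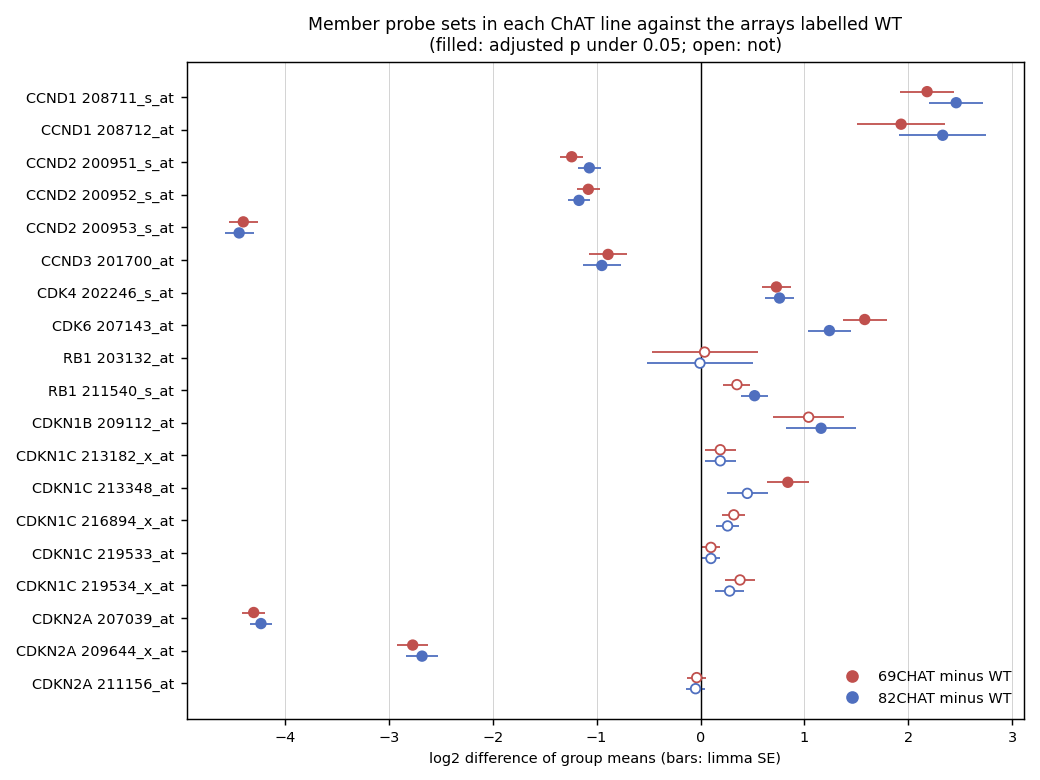
The log2 difference of each member probe set from the arrays labelled WT, with 69CHAT in red and 82CHAT in blue and limma standard errors as bars. Filled points had an adjusted p under 0.05, and CCND1 and CDK6 lie furthest to the right and CCND2 and CDKN2A furthest to the left in both lines.

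The D cyclins differed in opposite directions. CCND1, whose product cyclin D1 builds up when growth factors are present, was higher in both lines, while CCND2 and CCND3 were lower in both. CCND1 lies at chr11:69641156-69654474 (GRCh38.p14) and was read by a pair of probe sets. Probe set 208711_s_at read 528, 985 and 993 in 69CHAT and 780, 1024 and 1146 in 82CHAT, against 199, 147 and 188 in WT. Probe set 208712_at read 553, 1465 and 1622 in 69CHAT and 983, 1701 and 1787 in 82CHAT, against 206, 352 and 326 in WT. For both, every array of either line was above every WT array, and replicate 1 was the lowest of each line. The difference for 208711_s_at was 2.18 on the log2 scale in 69CHAT (SE 0.26, 4.54-fold, adjusted p = 0.00032) and 2.46 in 82CHAT (SE 0.26, 5.49-fold, adjusted p = 0.00016). For 208712_at it was 1.93 in 69CHAT (SE 0.42, 3.82-fold, adjusted p = 0.0092) and 2.33 in 82CHAT (SE 0.42, 5.02-fold, adjusted p = 0.0035). Both probe sets thus gave CCND1 as higher by a similar factor.

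CCND2, at chr12:4273762-4305353, encodes cyclin D2. Its probe set 200953_s_at read 37.2, 31.5 and 30.3 in 69CHAT and 34.1, 33.4 and 28.5 in 82CHAT, against 574, 773 and 748 in WT. The values of both lines lay under 55.9, which is the smallest lower quartile among the arrays, so they are near the dim end of the scale and the folds are approximate. CCND2 was about 21.1-fold lower in 69CHAT (log2 difference -4.40, SE 0.14, adjusted p = 1.8e-07) and about 21.7-fold lower in 82CHAT (-4.44, SE 0.14, adjusted p = 1.6e-07). The other CCND2 probe sets moved the same way by less. Probe set 200951_s_at read 45.1, 48.7 and 46.7 in 69CHAT and 53.3, 50.8 and 53.8 in 82CHAT, against 124, 92.9 and 117 in WT, and was about 2.36-fold and 2.1-fold lower in the lines (adjusted p = 6.2e-05 and 0.00014). Probe set 200952_s_at read 49.7 to 56.3 over the arrays of both lines, against 99.0 to 131 in WT, and was about 2.11-fold and 2.25-fold lower (adjusted p = 0.00012 and 7.7e-05). The probe sets of CCND2 therefore shared a direction and differed in size, which was not explored further.

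CCND3, at chr6:41934933-42050035, encodes cyclin D3 and had 1 probe set. It read 533, 379 and 405 in 69CHAT and 537, 389 and 347 in 82CHAT, against 801, 781 and 833 in WT. All arrays of the lines were below all WT arrays, with replicate 1 the highest of each line. CCND3 was 1.85-fold lower in 69CHAT (log2 difference -0.89, SE 0.18, adjusted p = 0.0055) and 1.93-fold lower in 82CHAT (-0.95, SE 0.18, adjusted p = 0.004).

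**Figure D2:**
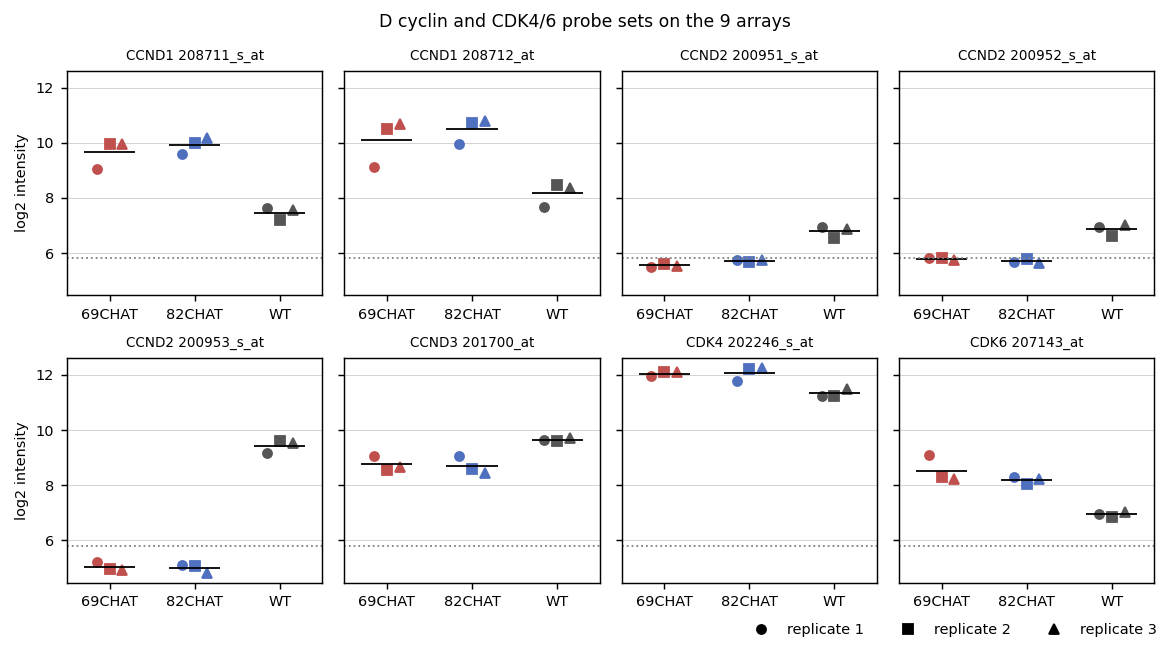
Log2 intensity of the D cyclin and CDK4/6 probe sets on each array, by group and replicate number, with a bar at each group mean and a dotted line at the smallest lower quartile among the arrays. CCND1, CDK4 and CDK6 sit above the WT arrays in both lines and CCND2 and CCND3 below them.

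Both kinases that partner the D cyclins were higher in the lines. CDK4, at chr12:57747727-57752310, read 3961, 4379 and 4441 in 69CHAT and 3535, 4751 and 4858 in 82CHAT, against 2403, 2433 and 2897 in WT. CDK4 was 1.66-fold higher in 69CHAT (log2 difference 0.73, SE 0.14, adjusted p = 0.0042) and 1.69-fold higher in 82CHAT (0.76, SE 0.14, adjusted p = 0.0034). The groups did not overlap. CDK6, at chr7:92604921-92836573, read 545, 311 and 297 in 69CHAT and 311, 264 and 299 in 82CHAT, against 123, 115 and 132 in WT. CDK6 was 3-fold higher in 69CHAT (log2 difference 1.58, SE 0.21, adjusted p = 0.00063) and 2.36-fold higher in 82CHAT (1.24, SE 0.21, adjusted p = 0.0025). Replicate 1 of 69CHAT was the highest of all arrays for CDK6, and the log2 difference between same-numbered arrays of 69CHAT and WT was 2.15 for that replicate, 1.44 for replicate 2 and 1.17 for replicate 3.

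RB1, at chr13:48303751-48481890, is the substrate of these kinases, and its probe sets gave different pictures. Probe set 203132_at read 128, 317 and 368 in 69CHAT and 127, 345 and 311 in 82CHAT, against 151, 316 and 289 in WT. The groups overlapped fully, and replicate 1 was the lowest array in each. Its log2 difference from WT was 0.039 in 69CHAT (95% interval -1.12 to 1.20, adjusted p = 0.964) and -0.0057 in 82CHAT (-1.16 to 1.15, adjusted p = 0.994), intervals that span a 2-fold change either way. These intervals come from the fit without a block, so their width includes the shift of replicate 1. Between same-numbered arrays the log2 differences from WT were -0.24, 0.01 and 0.35 in 69CHAT. In 82CHAT they were -0.25, 0.13 and 0.11. Probe set 211540_s_at read 80.3, 90.8 and 99.6 in 69CHAT and 115, 91.1 and 99.4 in 82CHAT, against 72.9, 62.2 and 77.7 in WT. It was 1.44-fold higher in 82CHAT (log2 difference 0.52, SE 0.13, adjusted p = 0.016) and gave 0.35 in 69CHAT (SE 0.13, adjusted p = 0.082). Without replicate 2 of WT the 82CHAT value no longer passed (adjusted p = 0.0596).

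Among the inhibitors, CDKN2A stood lowest in the lines relative to WT. CDKN2A lies at chr9:21967752-21995324. Its probe set 207039_at read 58.3, 43.7 and 51.5 in 69CHAT and 53.3, 55.7 and 50.8 in 82CHAT, against 986, 1041 and 979 in WT. The values of the lines were near the dim end of the scale, so the folds are approximate. This probe set was about 19.7-fold lower in 69CHAT (log2 difference -4.30, SE 0.11, adjusted p = 6.6e-08) and about 18.8-fold lower in 82CHAT (-4.23, SE 0.11, adjusted p = 6.4e-08). Probe set 209644_x_at read 176, 224 and 221 in 69CHAT and 178, 244 and 243 in 82CHAT, against 1331, 1423 and 1462 in WT. It was 6.83-fold lower in 69CHAT (log2 difference -2.77, SE 0.15, adjusted p = 2.8e-06) and 6.41-fold lower in 82CHAT (-2.68, SE 0.15, adjusted p = 3.4e-06), and its suffix marks probes that may match other transcripts. The third CDKN2A probe set, 211156_at, read 30.9 to 37.8 over all 9 arrays and gave log2 differences of -0.037 in 69CHAT and -0.048 in 82CHAT (adjusted p = 0.8 and 0.73). It was dim on every array, so it carries no information on the direction.

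CDKN1B, at chr12:12717368-12722369, encodes p27. It read 734, 1396 and 1748 in 69CHAT and 941, 1456 and 1658 in 82CHAT, against 447, 701 and 651 in WT. Every array of the lines exceeded every WT array, with replicate 1 the lowest in all 3 groups. In 82CHAT it was 2.23-fold higher (log2 difference 1.16, SE 0.34, adjusted p = 0.035). In 69CHAT the log2 difference was 1.04 (SE 0.34, adjusted p = 0.054), which did not pass. With the replicate number as a block the 69CHAT value passed (adjusted p = 0.00082), as it did in 8 of 19 alternatives in all (range 0.00034 to 0.17). The 82CHAT call was lost when 69CHAT replicate 2, 82CHAT replicate 2 or 3, or any 1 of the WT arrays was left out (adjusted p = 0.0516 to 0.117), and with each array centred on a common median (0.0564).

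CDKN1C, at chr11:2883218-2885775, encodes p57, an imprinted inhibitor that accompanies cell cycle exit in many developing tissues. It had 5 probe sets, of which 1 passed in 69CHAT and 0 in 82CHAT. Probe set 213348_at read 188, 109 and 113 in 69CHAT and 104, 108 and 92.0 in 82CHAT, against 84.3, 70.6 and 68.0 in WT. It was 1.79-fold higher in 69CHAT (log2 difference 0.84, SE 0.20, adjusted p = 0.014) and gave 0.45 in 82CHAT (SE 0.20, adjusted p = 0.14, and 0.049 with the replicate block). The 69CHAT call was lost without WT replicate 2 (adjusted p = 0.05) and without WT replicate 3 (adjusted p = 0.0539). The other 4 probe sets read 38.5 to 85.3 and had log2 differences of 0.10 to 0.38 in 69CHAT and 0.10 to 0.28 in 82CHAT. Among these, 216894_x_at (adjusted p = 0.059 in 69CHAT and 0.11 in 82CHAT) and 219534_x_at (0.088 and 0.19) passed in both lines with the replicate block (0.0093 and 0.02, 0.0049 and 0.017).

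**Figure D3:**
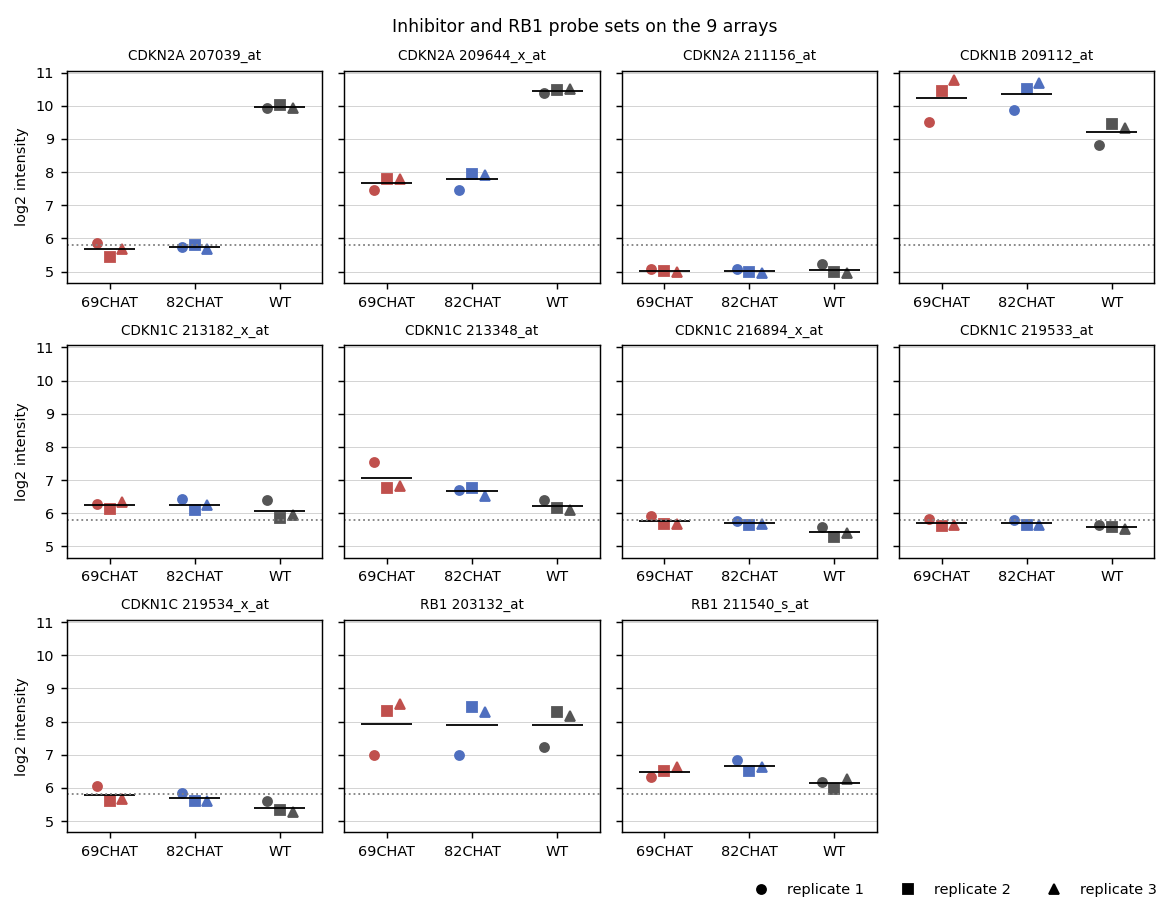
Log2 intensity of the RB1, CDKN1B, CDKN1C and CDKN2A probe sets on each array, by group and replicate number, with a bar at each group mean and a dotted line at the smallest lower quartile among the arrays. Probe sets 207039_at and 209644_x_at of CDKN2A are far lower in both lines than in WT, and replicate 1 is the lowest array of every group for CDKN1B and for 203132_at of RB1.

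Set against each other, the lines gave 0 called member probe sets of 19, where 0% of all probe sets were called. Before adjustment 0 member probe sets were under 0.05 in limma, beside 733 of all probe sets, and the lowest member p was 0.086. The log2 differences of 82CHAT from 69CHAT lay between -0.39 (CDKN1C 213348_at) and 0.40 (CCND1 208712_at). For CCND1 208711_s_at the difference was 0.28 with a 95% interval of -0.31 to 0.87, and for CDK6 it was -0.35 with -0.83 to 0.14. Narrower intervals held for CDK4 (0.028, from -0.28 to 0.34), for CDKN2A 207039_at (0.066, from -0.18 to 0.31) and for CCND2 200953_s_at (-0.044, from -0.36 to 0.27). A 2-fold difference between the lines lies outside these intervals and inside those of RB1 203132_at (-1.20 to 1.11) and CCND1 208712_at (-0.57 to 1.36). The width of these last intervals includes the shift of replicate 1. Between same-numbered arrays the lines differed by -0.01, 0.12 and -0.24 for RB1 203132_at, and by 0.83, 0.22 and 0.14 for CCND1 208712_at. The arrays of the lines did not overlap for 2 member probe sets, CCND2 200951_s_at and CDKN1C 213348_at, where 6.84% of all probe sets did not overlap. With replicates 2 and 3 alone 0 member probe sets were called, against 218 higher and 236 lower in the whole table.

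Several members differed between replicate 1 and the other replicates of the same group. For RB1 203132_at, replicate 1 lay below the mean log2 value of replicates 2 and 3 with log2 differences of -1.42 in 69CHAT, -1.36 in 82CHAT and -1.0 in WT. For CDKN1B the same differences were -1.09 in 69CHAT, -0.72 in 82CHAT and -0.59 in WT. For CCND1 208712_at they were -1.48, -0.83 and -0.72 in that order of groups. CCND1 208711_s_at was lower in replicate 1 of the lines (-0.90 in 69CHAT and -0.47 in 82CHAT) and not in WT (0.26). All 5 CDKN1C probe sets were higher in replicate 1 of every group, by at most 0.76. How many of all probe sets share that pattern was not counted. Over the whole table the lower quartile was also highest in replicate 1 of each group. It was 61.4 against 57.5 and 56.6 in 69CHAT, and 62.7 against 58.3 and 55.9 in 82CHAT. In WT it was 59.4 against 56.8 and 56.3. Of all probe sets 14 were lower in replicate 1 by more than 1 on the log2 scale in all 3 groups, and 0 of them were member probe sets, since the WT value of RB1 203132_at did not pass that limit before rounding. What parted replicate 1 was not tested, and the labels give no day or batch.

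**Figure D4:**
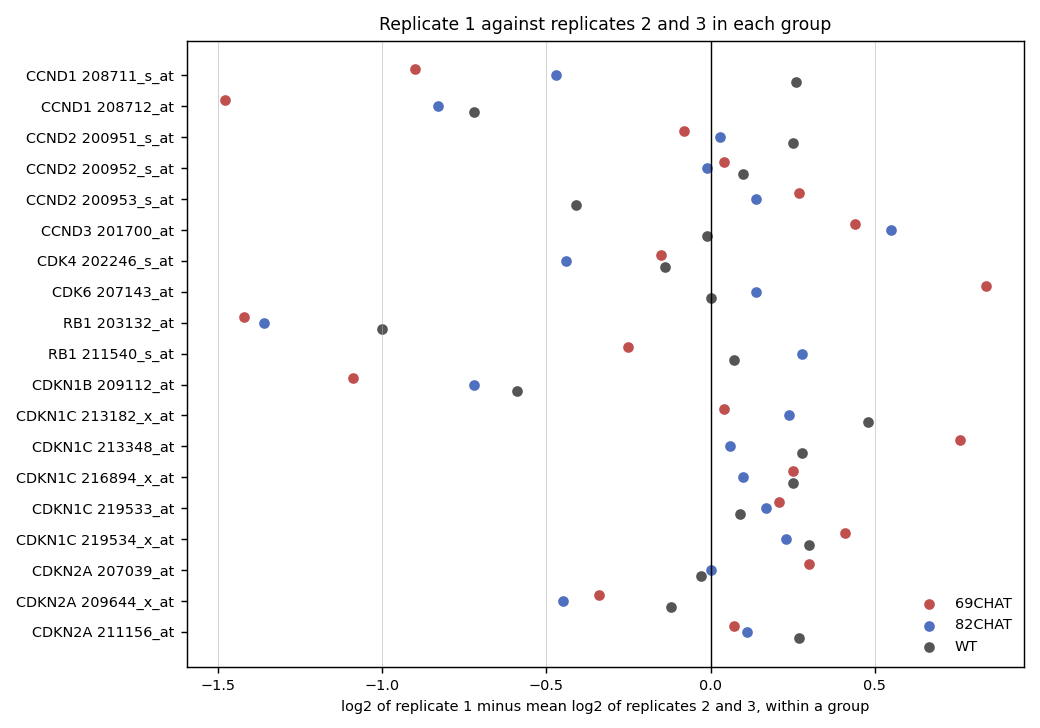
Log2 of replicate 1 minus the mean log2 of replicates 2 and 3, within 69CHAT (red), 82CHAT (blue) and WT (grey), for each member probe set. RB1 203132_at, CDKN1B and CCND1 208712_at lie left of 0 in all 3 groups, and the CDKN1C probe sets lie right of 0.

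The genes that act around the members were counted from a list of 51 genes in 7 groups, of which 50 had 87 probe sets. In 69CHAT 7 of these probe sets were higher and 18 lower than in WT (28.7% called, beside 26.2% of all probe sets). In 82CHAT 12 were higher and 16 lower (32.2% called, beside 26.8%). In this fit both shares are near those of the whole table. The replicate block raised the share called in both, and by more in the list than in the whole table. It gave 9 higher and 31 lower list probe sets in 69CHAT (46.0% called, beside 36.5% of all) and 16 higher and 26 lower in 82CHAT (48.3%, beside 38.2%). Counted by gene without the block, 13.4% of all genes were higher and 19.6% lower in 69CHAT, and 13.7% and 20.4% in 82CHAT, which are the shares behind the gene counts of the groups that follow. Between 82CHAT and 69CHAT 0 probe sets of the list were called in limma, with 5 under an unadjusted p of 0.05.

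Of the 3 other inhibitors 2 genes fell in both lines. CDKN1A, which encodes the p53 target p21, read 293, 329 and 377 in 69CHAT and 308, 307 and 252 in 82CHAT, against 1293, 1321 and 1196 in WT. That is 3.83-fold lower in 69CHAT (adjusted p = 7e-06) and 4.41-fold lower in 82CHAT (adjusted p = 3.7e-06). CDKN2B, the INK4 gene beside CDKN2A, read 24.3 to 27.6 in 69CHAT and 22.9 to 25.5 in 82CHAT, against 31.1 to 41.1 in WT, all dim (log2 differences -0.44 and -0.49, adjusted p = 0.024 and 0.014). The CDKN2B call was lost without 69CHAT replicate 2 or 3 or WT replicate 1 in 69CHAT (adjusted p = 0.0511 to 0.0826) and without 82CHAT replicate 2 in 82CHAT (0.0562). CDKN2D did not pass in either line, with log2 differences from 0.0056 to 0.072.

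Of the 10 pocket protein and E2F or DP genes, 3 rose and 2 fell in 69CHAT, and 3 rose and 1 fell in 82CHAT. E2F1, the activating E2F held by RB1, read 1019, 1151 and 1175 in 69CHAT and 1099, 1170 and 1213 in 82CHAT, against 856, 829 and 688 in WT, by its probe set 204947_at. Its log2 difference was 0.50 in 69CHAT (adjusted p = 0.0074) and 0.56 in 82CHAT (adjusted p = 0.0042), and probe set 2028_s_at gave the same differences. E2F6, a repressor of the family, was higher by 0.92 in 69CHAT and 0.69 in 82CHAT (adjusted p = 0.00054 and 0.0026). TFDP2, a partner of the E2Fs, was higher by 0.83 and 0.56 in one of its probe sets (203589_s_at, adjusted p = 0.00066 and 0.0056) and gave -0.075 and -0.21 in the other (adjusted p = 0.75 and 0.35). RBL2, a relative of RB1, was lower by its probe set 212332_at, with log2 differences of -0.42 in 69CHAT and -0.55 in 82CHAT (adjusted p = 0.013 and 0.0033). The RBL2 call in 69CHAT was lost without 69CHAT replicate 3 or WT replicate 3 (adjusted p = 0.0516 to 0.0537).

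CCNE1, the cyclin that follows the D cyclins and activates CDK2, was the 1 gene of 5 in its group that fell in each line. It read 292, 284 and 261 in 69CHAT and 245, 282 and 294 in 82CHAT, against 752, 771 and 686 in WT (2.64-fold and 2.69-fold lower, adjusted p = 1.3e-05 and 1.1e-05). CDK2 rose in 82CHAT, by 0.55 on the log2 scale for 204252_at (adjusted p = 0.0014), where 69CHAT gave 0.19 (adjusted p = 0.15). Of the 3 genes of the CDK-activating kinase, MNAT1, its assembly factor, fell in both lines (log2 differences -0.99 and -0.98, adjusted p = 0.00012 and 0.00013), and CCNH, its cyclin, fell in 82CHAT (-0.78, adjusted p = 0.0088) and gave -0.42 in 69CHAT (adjusted p = 0.11). Of 6 genes of SCF ubiquitin ligases and their cofactors, which tag proteins such as p27 and cyclin E for degradation, 2 rose in 69CHAT and 3 in 82CHAT, and 0 fell. SKP2, the subunit that recognises p27 for degradation, was 1.67-fold higher in 69CHAT and 1.73-fold higher in 82CHAT by probe set 203626_s_at (adjusted p = 0.0038 and 0.0027). FBXW7, which recognises cyclin E, was higher by 0.37 and 0.45 (adjusted p = 0.012 and 0.0041), and CKS1B, the cofactor of SKP2, by 0.83 in 82CHAT (adjusted p = 0.018), with 0.50 in 69CHAT (adjusted p = 0.12). The FBXW7 call in 69CHAT was lost without 69CHAT replicate 2 (adjusted p = 0.0523), and the CKS1B call without 82CHAT replicate 2 or 3 or WT replicate 1 or 2 (0.0565 to 0.0684).

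Of 17 measured E2F-driven replication genes, 0 rose and 3 fell in 69CHAT, and 2 rose and 2 fell in 82CHAT. CDC45, a part of the replicative helicase, was lower in both lines (log2 differences -0.82 and -0.84, adjusted p = 8.7e-05 and 7.6e-05). CDT1, a licensing factor, read 295, 138 and 135 in 69CHAT and 197, 184 and 194 in 82CHAT, against 449, 337 and 429 in WT (log2 differences -1.19 and -1.07, adjusted p = 0.012 and 0.02). The CDT1 call in 82CHAT was lost without 82CHAT replicate 2 or 3 or WT replicate 1 or 3 (adjusted p = 0.0518 to 0.0678). MCM7, another helicase subunit, fell in 69CHAT by probe set 210983_s_at (-0.43, adjusted p = 0.045) and gave -0.24 in 82CHAT (adjusted p = 0.23). The MCM7 call was lost in 12 alternatives, among them each single array left out except WT replicate 2 (adjusted p = 0.0503 to 0.134). TK1, thymidine kinase, rose in 82CHAT (0.40, adjusted p = 0.011) and gave 0.24 in 69CHAT (adjusted p = 0.096).

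Of 6 proliferation markers 5 fell in 69CHAT and 4 in 82CHAT, beside 19.6% and 20.4% of all genes, and 0 rose. MKI67 read 367, 607 and 589 in 69CHAT and 678, 691 and 691 in 82CHAT, against 1189, 1235 and 1195 in WT, by probe set 212022_s_at (log2 differences -1.25 and -0.81, adjusted p = 0.00078 and 0.0078). AURKA, a mitotic kinase, was lower by 204092_s_at (-1.08 and -0.92, adjusted p = 0.0039 and 0.0093), and CDK1, the mitotic CDK, by 210559_s_at (-0.72 in each line, adjusted p = 0.0026 and 0.0027).

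**Figure D5:**
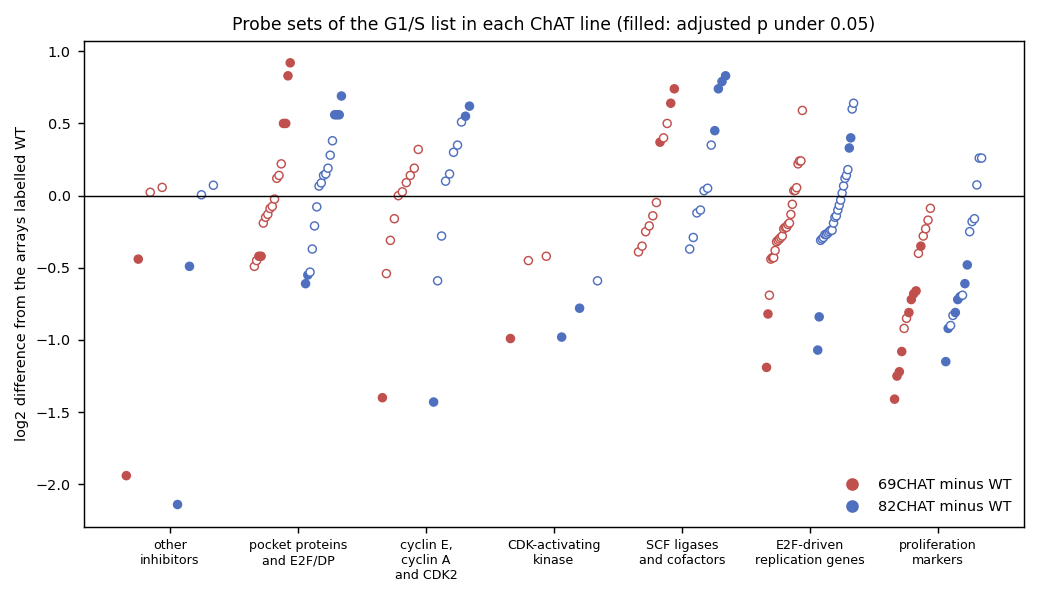
The log2 difference from the arrays labelled WT of each probe set of the genes around the members, in 7 groups, with 69CHAT in red and 82CHAT in blue and filled points where the adjusted p was under 0.05. CDKN1A and CCNE1 are the lowest of their groups, every called probe set of the SCF ligase group is above 0, and every called proliferation marker is below 0.

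The nearest measured genes on each side of a member were also read, 4 for each of the 10 member loci. They were taken in order of start position with no limit on distance, so some lie far from the member. Of these 40 genes 5 were higher and 9 lower in each line, beside 13.4% and 19.6% of all genes in 69CHAT and 13.7% and 20.4% in 82CHAT. Next to CCND2, TIGAR, a regulator of glycolysis, read 63.7, 97.8 and 114 in 69CHAT and 48.3, 86.3 and 86.9 in 82CHAT, against 298, 441 and 465 in WT (log2 differences -2.15 and -2.47, adjusted p = 0.00079 and 0.00035). Its other neighbours, PRMT8, PARP11 and FGF23, did not pass. Next to CCND3, MRPS10, a mitochondrial ribosomal protein, was lower (-0.83 and -0.79, adjusted p = 0.0031 and 0.0041), while MED20, BYSL and GUCA1A did not pass. Next to CDK4, CYP27B1, which activates vitamin D, was higher (0.59 and 0.58, adjusted p = 0.0064 and 0.007), AGAP2 and METTL1 did not pass, and TSPAN31 was lower by 203227_s_at (-0.88 and -0.78, adjusted p = 0.027 and 0.044). The brighter TSPAN31 probe set 203226_s_at did not pass (-0.30 and -0.38, adjusted p = 0.48 and 0.36). The TSPAN31 call was lost in 4 alternatives in 69CHAT and 10 in 82CHAT (adjusted p up to 0.093 and 0.136). Of the genes around CDKN2A, which ends at chr9:21995324, ELAVL2, a neuronal RNA-binding protein that starts at chr9:23690104, was higher (log2 differences 2.0 and 2.15, adjusted p = 0.0024 and 0.0016). MTAP, an enzyme of methionine salvage, did not pass by 211364_at and 217134_at and was lower in 3 other probe sets. Of these 211363_s_at gave -0.72 in 69CHAT and -0.69 in 82CHAT (adjusted p = 0.012 and 0.015), calls lost without 69CHAT replicate 2 and without 82CHAT replicate 2 or 3 (0.0503 to 0.0519). CDKN2B is described above, and CDKN2A-AS1 did not pass. Around CDKN1B neighbours differed in direction. GPR19, an orphan receptor, was higher (2.42 and 2.54, adjusted p = 1.6e-05 and 1.2e-05), and GPRC5A, another orphan receptor, was lower by 203108_at (-1.60 and -1.54, adjusted p = 7.5e-05 and 9.2e-05). CREBL2, a bZIP protein, was higher by 201988_s_at (0.53 and 0.64, adjusted p = 0.0012 and 0.0004), and APOLD1 was lower (-0.34 and -0.33, adjusted p = 0.03 and 0.034), a call lost in several alternatives in both lines (adjusted p up to 0.107 and 0.118). Of the genes around CDKN2C, which starts at chr1:50960745, ELAVL4, a neuronal RNA-binding protein that starts at chr1:50048055, was higher (4.55 and 5.14, adjusted p = 0.0001 and 4.9e-05). RNF11 did not pass, and TTC39A was lower by 210652_s_at (-1.58 and -1.69, adjusted p = 2.4e-06 and 1.7e-06). The other TTC39A probe sets did not pass, with -0.014 and 0.11 for 215562_at and 0.0033 and 0.036 for 217101_at. FAF1 was lower there too (-1.30 and -0.78, adjusted p = 0.0029 and 0.034), with the 82CHAT call lost in several alternatives (adjusted p up to 0.115). No neighbour of CCND1 (CPT1A, IGHMBP2, FGF4 and FGF3), CDK6 (GATAD1, RBM48, SAMD9 and VPS50), RB1 (MED4, ITM2B, LPAR6 and RCBTB2) or CDKN1C (KCNQ1OT1, KCNQ1DN, SLC67A1-AS and SLC67A1) passed in either line.

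The genes most like each member over the 9 arrays were taken by the root mean square difference of log2 values, each centred on its own mean. Closest to CCND1 208712_at was SLC6A2, the noradrenaline transporter, at 0.15, with TENM4 at 0.2 and ELAVL2 at 0.21, where CCND1 itself had an SD of 1.20 over the arrays. Closest to CCND2 200953_s_at were S100A10 at 0.1 and VAMP8 at 0.12, followed by CDKN2A 207039_at at 0.16, so that these 2 members followed each other closely over the arrays. Closest to CDKN2A 209644_x_at were FUCA1 at 0.11, NPC2 at 0.14 and CDC42 at 0.15. CCND3 lay nearest PRR5, by both of its probe sets (0.08 and 0.092), and UBR2 (0.082). CDK4 lay nearest SUPT4H1 (0.05), BCL7A and CZIB (0.062 each), and CDK6 nearest CIRBP (0.15), LRCH1 and UCP2 (0.16 each). RB1 203132_at lay nearest CUL4A (0.1), HAUS6 and EIF4E (0.13 each). CDKN1B lay nearest ATP1B1 (0.098), NRIP1 (0.13) and APPBP2 (0.15), and CDKN1C 213348_at nearest SEPTIN6 (0.11), LETMD1 (0.12) and NR4A1 (0.13). All of these are descriptions over arrays of 3 groups. Any gene that parts the lines from WT, and replicate 1 from the other replicates, by like amounts ranks as near. RB1 203132_at did not part the lines from WT, and replicate 1 was its lowest array in each group. The SD of the members over the arrays ran from 0.40 (CDK4) to 2.21 (CCND2 200953_s_at), so distances do not compare between members.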

How the data were processed

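Total RNA of 9 samples was measured on 1-colour oligonucleotide arrays, 3 per group, with groups and replicate numbers taken from the sample titles. The authors deposited linear-scale intensities between 14.9 and 21486. They were made with RMA, per the submitters' processing notes, and its version is not given in the sources used here, nor is the step from RMA's usual log2 scale to a linear one. RMA values can understate folds of dim probe sets. The table held 22283 probe sets, of which 68 controls were left out. A platform annotation gave 1 symbol to 19065 probe sets, several to 1043 and none to 2107, and only the first kind were named. Entrez identifiers of 19053 of the 19065 matched RefSeq (GRCh38.p14), the source of positions and promoters.

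Log2 intensities, with no pseudocount, entered limma 3.58.1 under R 4.3.3 (3 group means over 9 arrays, eBayes, two-sided, Benjamini-Hochberg over 22215 probe sets, threshold 0.05), which was tested on simulated data. The simulated noise was independent between arrays, unlike the shift that same-numbered arrays share here, so the simulation does not cover that shift. No set test was run. The number of arrays limits the precision. Members, gene lists and the naming rule were chosen with earlier results of these data known. The rule named every member probe set, up to 3 list genes per group and comparison by adjusted p (where none passed, the 1 that changed most), the nearest measured genes of each member, and the 3 probe sets most like each member's brightest one. Figures and sequence searches used Python 3.11.15.

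Same-numbered arrays of different groups deviated together from their group means (r of 0.278 to 0.573 in all 9 pairs). Across groups, replicate 2 against 3 gave 0.209 to 0.475 and replicate 1 against 2 or 3 gave -0.594 to -0.279. The fit without a block is the main one. Alternatives were scaling, a pseudocount of 16, a filter on dim probe sets, _x_at and _s_at probe sets left out, eBayes settings, array weights, only the 6 arrays compared, the replicate block, replicates 2 and 3 only, each array left out, and a threshold of 0.01. That called list genes and neighbours be followed through these alternatives was decided after seeing the data.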

Additional observations from a re-analysis of the deposited data

How the results depend on the processing

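The calls of CCND1, CCND2, CCND3, CDK4, CDK6 and CDKN2A (207039_at and 209644_x_at) kept their direction and an adjusted p under 0.05 in both lines in each of the 17 to 19 alternatives that tested them. Of 342 member values per comparison, 24 newly passed and 2 no longer passed in 69CHAT against WT, and 11 and 8 in 82CHAT against WT, and 0 changed in 82CHAT against 69CHAT. Of the called list genes and neighbours, 60 values of 69CHAT and 91 of 82CHAT no longer passed. Repeated quantile normalization gave 8 higher member probe sets and 11 higher list probe sets in 69CHAT. Without _x_at and _s_at probe sets fewer were there to count, and 3 member probe sets were higher and 2 lower in each line, with 2 list probe sets higher and 3 lower in 69CHAT and 4 higher and 4 lower in 82CHAT. Array weights (fitted gene by gene) gave 9 higher members in 69CHAT, list counts of 13 higher and 30 lower in 69CHAT and of 20 higher in 82CHAT, and between 82CHAT and 69CHAT 8 higher and 1 lower list probe sets. The replicate block, which pairs arrays by number, gave 8 higher members and 31 lower list probe sets in 69CHAT and 26 lower in 82CHAT, and every member call it changed stands in the text. Replicates 2 and 3 alone gave 10 higher members, 11 higher and 31 lower list probe sets in 69CHAT, and 25 lower in 82CHAT. At a threshold of 0.01, 9 list probe sets were lower in 69CHAT, and 7 higher and 9 lower in 82CHAT. With each array left out in turn, higher members numbered 4 to 7 in each line and lower ones 6 to 6. List probe sets numbered 5 to 9 higher and 13 to 23 lower in 69CHAT, and 9 to 15 higher and 9 to 20 lower in 82CHAT, the fewest without 82CHAT replicate 2 (9) and WT replicate 3 (10). The cause was not tested. Dim probe sets limit the folds of CCND2 and CDKN2A.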
